A study of Mus musculus with 5 samples.

Results

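The genes described here are interferon-stimulated genes, transcripts that cells make in answer to interferons. The module was a fixed list of 49 gene symbols, and 48 of them were found among the 27998 genes of the count tables. Mx2 was not analysed here. Members were picked by name, with no measured value in the rule, but by an author who knew earlier results of these data. They comprised 4 transcription factors of the pathway, 5 sensors of foreign nucleic acid, Isg15 with 5 protein-modifying enzymes, 4 Ifit genes, 5 oligoadenylate synthetase genes, Mx1, 3 membrane effectors, 5 guanylate binding proteins, 5 immunity-related GTPases and 10 other effectors.

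Kidneys of 5 C57BL/6j mice were profiled by droplet single-cell RNA sequencing (10x Genomics). All 5 mice had a lupus-like disease induced with pristane, a hydrocarbon oil. The saline group held 2 mice, and the other 3 mice received a faecal microbiota transplant (FMT) whose donors were MRL/MpJ mice, the strain behind the lupus-prone MRL/lpr line. There was no mouse without pristane and no transplant from another donor strain, so the transplant as such and the donor strain cannot be told apart. Age and sex of the mice were not given in the sources used here, nor whether cages or preparation days followed the groups. Each mouse is 1 library and is the replicate in every comparison.

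Type I interferons bind the receptor Ifnar1 and Ifnar2, whose kinases Jak1 and Tyk2 activate transcription factors, among them Stat2. With Irf9 this forms part of a complex that binds the interferon-stimulated response element in the promoters of its targets. Interferon gamma acts through Ifngr1 and Ifngr2 and through another promoter element, the gamma-activated site. In lupus an interferon signature in blood and kidney is common, and in the pristane model type I interferon from monocytes is known to drive autoantibody formation.

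The libraries held 15333445 to 45309178 UMIs (unique molecular identifiers, 1 per captured transcript) in 26237 barcodes, of which 22591 passed the cell filter. Cells were assigned by marker gates to 9 classes, and 18339 cells fell into exactly 1 class. The labels call the cells tubular epithelium, and their protocol text adds B cells, whereas 6 of the 9 classes found here were leukocytes of several kinds. Each gate was checked against its own marker list per 10000 UMIs of the class. The B list reached 88.8 to 105.3 in B-gated cells and 0.337 to 0.626 in proximal tubule cells. The proximal tubule list reached 114.4 to 138.3 in its own gate and 2.06 to 3.68 in B-gated cells, so that traces of foreign RNA were present in both gates. The lists include the gate genes, so part of each contrast was set by the gate. Cd79a, not a gate gene, was at 3640 to 4626 CPM (the count scaled to the total UMIs of the class) in B-gated cells. In proximal tubule cells it was at 13.5 to 24.5 CPM. Slc27a2 was at 1061 to 1749 CPM in proximal tubule and 10.4 to 98.7 CPM in B-gated cells. Kap overlapped, at 11.9 to 84.7 and 0 to 36.7 CPM. Nonclassical monocytes were unevenly filled, with 485 and 65 cells in saline mice 1 and 2 and 97, 61 and 21 cells in FMT mice 1 to 3. In that gate FMT mouse 2 also stood apart in plasma cell RNA. Jchain, the joining chain of antibodies, was at 8924 CPM there against 28.5 to 3532 CPM in the other mice.

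The promoters of the members hold the cores of both interferon elements at a higher share than the promoters of all genes. RefSeq windows of 250 bases before to 50 bases after a gene start (GRCm38.p6) were found for 37 of the 48 members. The response element core GAAANNGAAA, read on both strands, was present in 56.8% of these 37 members and in 3.99% of all 27025 genes with a window. The gamma-activated core TTCNNNGAA was present in 32.4% of the members and in 9.55% of all genes. The windows of 6 members on which the results below turn are printed from 250 bases before to 30 bases after the start, 5′ to 3′ on the gene's strand, with every match to either core in capitals. Isg15, the ubiquitin-like modifier, on chr4:156200789-156201068 (minus strand), has 3 overlapping response element cores. Ifit3, a scaffold of antiviral signalling, on chr19:34583279-34583558 (plus strand), has 2. Bst2, the virus tether also called tetherin, on chr8:71537443-71537722 (minus strand), has 2 that run into a gamma-activated core. Ifitm3, which blocks virus entry at endosomes, on chr7:141010715-141010994 (minus strand), has its cores just after the start. Irf1, a factor best known as a target of interferon gamma, on chr11:53769764-53770043 (plus strand), has a gamma-activated core 90 bases before the start and no response element core. Irf7, the factor that amplifies type I interferon, on chr7:141266395-141266674 (minus strand), has no match to either core in this window, which says only that these letters are not there.
Isg15: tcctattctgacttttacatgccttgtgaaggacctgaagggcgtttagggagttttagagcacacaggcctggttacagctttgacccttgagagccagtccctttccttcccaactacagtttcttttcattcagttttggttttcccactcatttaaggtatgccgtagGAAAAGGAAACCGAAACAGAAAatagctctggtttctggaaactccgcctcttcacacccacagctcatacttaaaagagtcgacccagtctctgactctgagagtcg
Ifit3: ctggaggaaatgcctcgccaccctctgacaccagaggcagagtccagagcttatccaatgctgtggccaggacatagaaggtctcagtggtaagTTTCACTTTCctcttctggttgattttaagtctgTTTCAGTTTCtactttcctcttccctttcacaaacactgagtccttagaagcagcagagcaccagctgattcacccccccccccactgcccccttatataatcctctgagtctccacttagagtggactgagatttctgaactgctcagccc
Bst2: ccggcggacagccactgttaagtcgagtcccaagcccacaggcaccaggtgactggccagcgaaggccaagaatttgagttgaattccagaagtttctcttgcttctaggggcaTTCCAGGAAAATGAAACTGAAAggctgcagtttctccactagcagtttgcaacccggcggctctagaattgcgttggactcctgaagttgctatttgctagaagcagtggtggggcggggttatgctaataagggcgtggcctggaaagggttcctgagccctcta
Ifitm3: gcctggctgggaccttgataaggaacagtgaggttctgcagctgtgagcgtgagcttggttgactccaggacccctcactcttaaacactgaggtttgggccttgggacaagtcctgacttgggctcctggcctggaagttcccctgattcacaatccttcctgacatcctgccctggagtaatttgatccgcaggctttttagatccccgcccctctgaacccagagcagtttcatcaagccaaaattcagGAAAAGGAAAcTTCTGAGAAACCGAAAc
Irf7: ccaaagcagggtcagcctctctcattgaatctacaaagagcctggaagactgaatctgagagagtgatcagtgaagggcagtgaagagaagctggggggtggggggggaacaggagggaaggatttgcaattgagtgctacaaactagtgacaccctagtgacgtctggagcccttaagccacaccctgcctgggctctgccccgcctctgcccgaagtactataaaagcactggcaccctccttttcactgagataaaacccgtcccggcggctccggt
Irf1: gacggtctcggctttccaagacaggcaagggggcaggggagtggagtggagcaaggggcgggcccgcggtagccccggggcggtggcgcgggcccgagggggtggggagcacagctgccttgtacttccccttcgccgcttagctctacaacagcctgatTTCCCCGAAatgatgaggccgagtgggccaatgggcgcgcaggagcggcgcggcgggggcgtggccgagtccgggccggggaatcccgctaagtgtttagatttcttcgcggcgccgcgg

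The module followed the cell lineage first. Member UMIs summed per 10000 UMIs of the class were highest in plasmacytoid dendritic cells and classical monocytes, lower in lymphocytes and lowest in epithelium. Plasmacytoid dendritic cells, the specialised makers of type I interferon, held 116.8 and 130.5 in saline mice 1 and 2 and 82.2, 127.9 and 93.1 in FMT mice 1 to 3. Classical monocytes held 64.3 and 109.6 in the saline mice and 118.3, 195.8 and 97.4 in the FMT mice. These 2 classes had 6 to 18 cells per mouse, so they are described without a test.

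Nonclassical monocytes held 51.2 and 73.1 member UMIs per 10000 in the saline mice and 69.6, 141.0 and 69.6 in the FMT mice. Neutrophils held 58.6 and 59.6 in the saline mice and 60.8, 100.8 and 70.8 in the FMT mice, with every FMT mouse above both saline mice. Lymphocytes lay lower in all 5 mice, at 26.4 to 40.1 in T-gated cells and 24.8 to 34.0 in B-gated cells. The 3 epithelial classes did not separate from each other beyond the spread between mice, at 4.18 to 6.78 in proximal tubule, 3.56 to 5.66 in distal tubule and 5.01 to 6.97 in intercalated cells. Within every mouse, each leukocyte class was above each epithelial class.

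**Figure D1:**
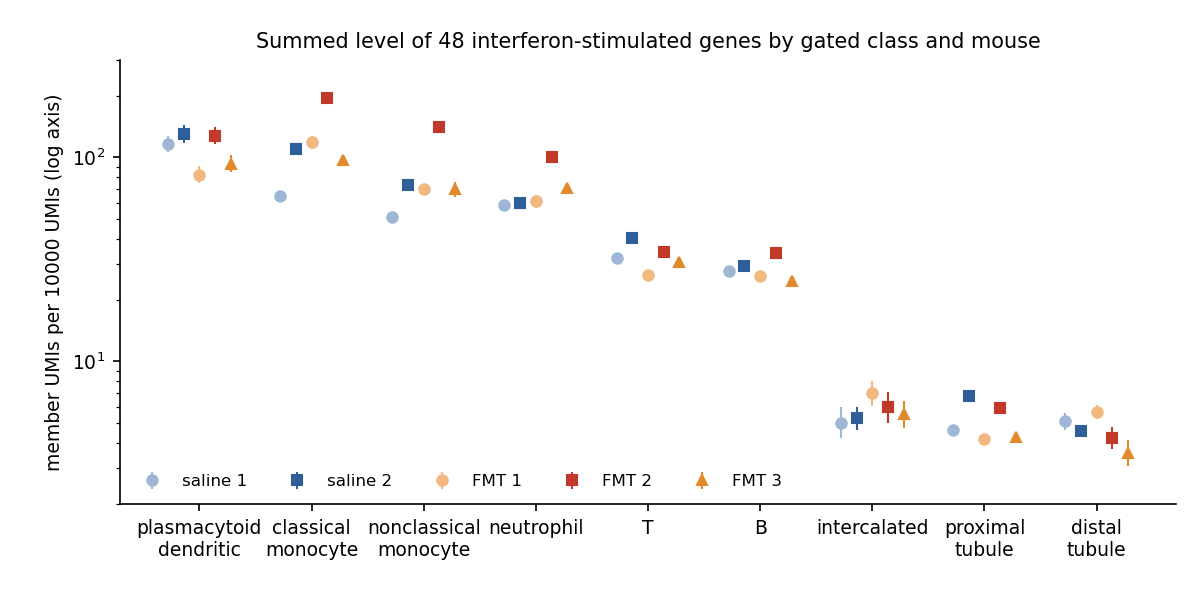
Member UMIs per 10000 UMIs of a class (log axis) for 9 gated classes; each point is 1 mouse and bars are exact 95% Poisson intervals, which cover counting error only. Leukocyte classes lie between 24.8 and 195.8 and epithelial classes between 3.56 and 6.97 in all 5 mice.

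Few genes carried these sums, and they differed by lineage. Ifitm3 made up 49.7% of the member UMIs of nonclassical monocytes and 40.1% of those of neutrophils. Ly6e, a membrane protein that restricts virus fusion, made up 46.8% in B-gated and 21.2% in T-gated cells. Bst2 made up 50.4% in plasmacytoid dendritic cells, for which it is also a surface marker. In proximal tubule cells Samd9l, an antiviral growth inhibitor, came first with 20.8%, in each of the 5 mice, and Irgm1, a regulator of the immunity-related GTPases, made up 12.4% over all mice, although Lgals3bp was ahead of it in saline mouse 1. The sums thus follow a few abundant genes, and the members are given gene by gene below.

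No member passed the edgeR quasi-likelihood test between FMT and saline in any of the 7 classes that could be tested. In those classes edgeR called 0.0372% of all genes tested in B-gated cells, 0.121% in T-gated cells, 0.21% in nonclassical monocytes, 0.615% in neutrophils, 0.0749% in proximal tubule, 0.158% in distal tubule and 0% in intercalated cells. At an unadjusted p under 0.05 the members numbered 6 of 39 in B-gated cells, 6 of 47 in T-gated cells, 9 of 26 in nonclassical monocytes, 6 of 32 in neutrophils, 11 of 42 in proximal tubule, 1 of 10 in distal tubule and 1 of 7 in intercalated cells. The same threshold was passed by 5.92%, 5.82%, 5.3997%, 10.8%, 11.2%, 4.39% and 2.63% of all genes tested in these classes, in the same order. DESeq2 called 2 members, both in proximal tubule cells, and 0 in the other classes. Each fold change below is given on the log2 scale, FMT mice against saline mice, with its standard error (SE), and describes 2 against 3 mice. A set of genes is read by its median, beside a median over all genes tested that was between −0.02 and 0.01 in every class.

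**Figure D2:**
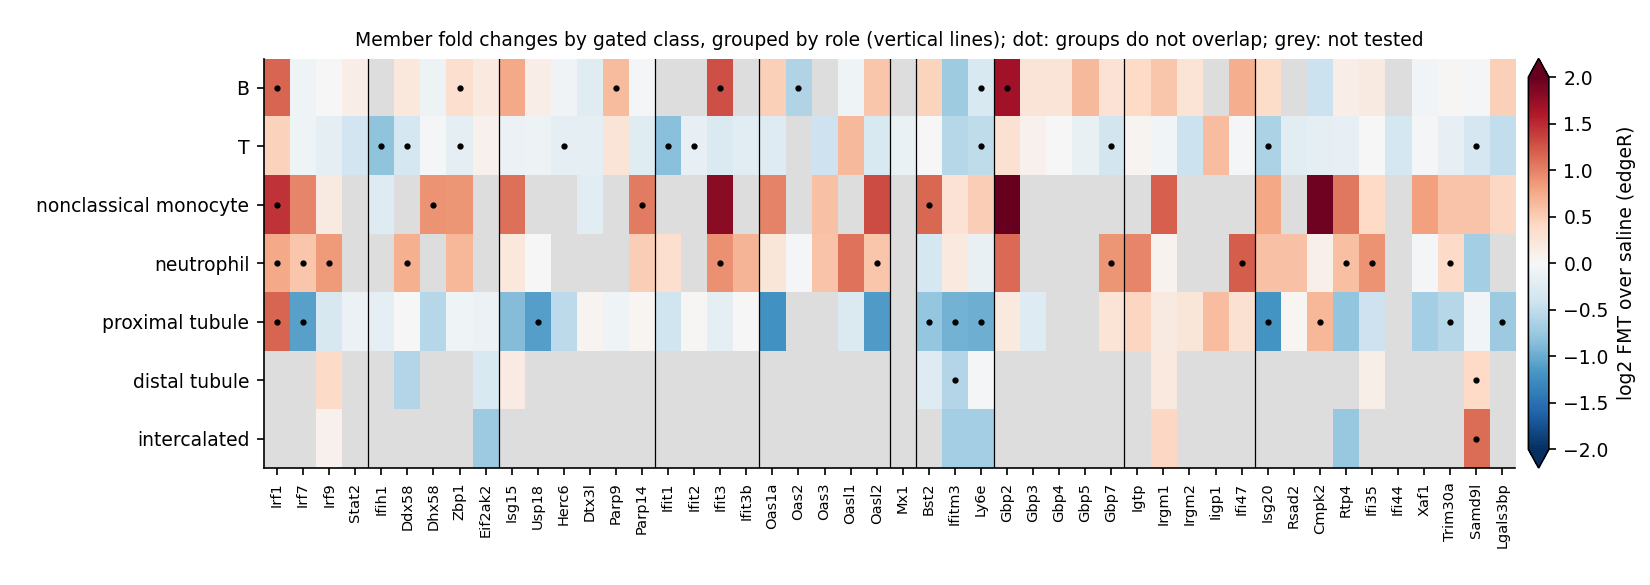
Log2 fold change of FMT over saline (colour, edgeR) for each of the 48 members in the 7 tested classes, grouped by role; dots mark members whose FMT mice all lie above or all below both saline mice, and grey marks members that did not pass the low count filter. Nonclassical monocytes and neutrophils are mostly red, T-gated and proximal tubule cells mostly blue, and Irf1 is red in all 5 of its tested classes.

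Members differed between mice of the same group. FMT mouse 2 had the highest level of the 5 mice for 23 of 26 tested members in nonclassical monocytes (88.5%, against 30.5% of all genes tested there). The same held for 24 of 32 members in neutrophils (75.0% against 23.5%) and for 25 of 39 in B-gated cells (64.1% against 18.9%). In T-gated and proximal tubule cells saline mouse 2 led instead. It had the highest level for 20 of 47 members in T-gated cells (42.6% against 20.4%) and for 24 of 42 in proximal tubule cells (57.1% against 30.7%). In proximal tubule cells saline mouse 2 was above saline mouse 1 for 37 of 42 members, 88.1% against 61.1% of all genes tested. These shares describe the mice and carry no test.

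**Figure D3:**
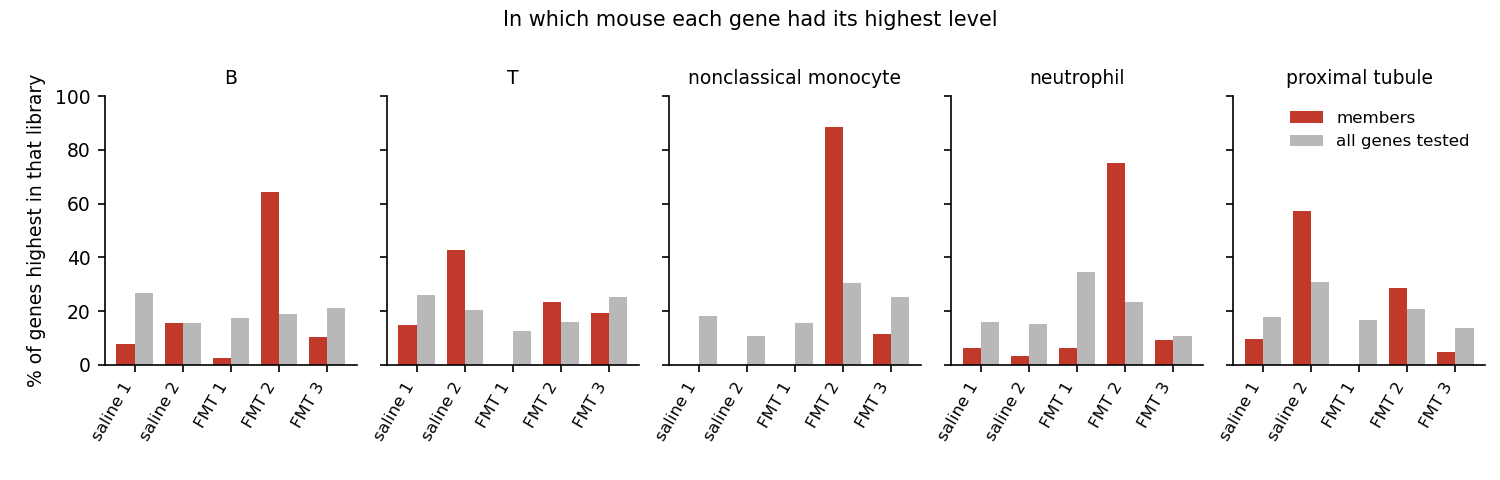
Share of genes (%) that had their highest level in each of the 5 mice, for the tested members (red) and for all genes tested (grey), in 5 classes. FMT mouse 2 holds the highest level of 88.5% of members in nonclassical monocytes, while saline mouse 2 holds that of 57.1% in proximal tubule cells.

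Nonclassical monocytes, blood monocytes that patrol vessel walls, had the largest differences. Of 26 members tested, 24 were higher and 2 lower in FMT, with a median of 0.89. Without overlap between the groups, 4 were higher (11.2% of all genes tested) and 0 lower (7.06%). The share of members higher without overlap was not far from that of all genes. The transcription factor Irf1 was at 44.4 and 57.4 CPM in the saline mice and 89.2, 228.8 and 85.5 CPM in the FMT mice. All FMT mice were above both saline mice, and the log2 fold change was 1.45 (SE 0.39, edgeR adjusted p = 0.381).

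Bst2 was at 128.6 and 156.3 CPM in the saline mice and 291.8, 418.1 and 256.4 CPM in the FMT mice. The groups did not overlap, at 142 ± 19.6 against 322 ± 85 CPM (SD, n = 2 and 3) and a log2 fold change of 1.15 (SE 0.27, edgeR adjusted p = 0.222). Parp14, an enzyme that attaches ADP-ribose to proteins, was at 63.7 and 54.2 against 99.97, 189.2 and 85.5 CPM, again without overlap (1.04, SE 0.32). The fourth member without overlap was Dhx58, a regulator of RNA sensing with a mean under 30 CPM.

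The other named members of this class overlapped, with FMT mouse 2 above the rest. Irf7 was at 76.0 and 251.9 CPM in the saline mice and 143.2, 598.5 and 213.6 CPM in the FMT mice. Isg15 was at 37.99 and 98.9 against 67.5, 259.6 and 57.0 CPM, and Ifit3 at 8.18 and 31.9 against 18.9, 110.0 and 14.2 CPM. In each of these genes saline mouse 2 lay above FMT mice 1 and 3, and the log2 fold changes were 0.98 (SE 0.56), 1.11 (SE 0.55) and 1.80 (SE 0.77). The abundant members had smaller fold changes. Ifitm3 was at 2754 and 3562 against 3423, 5637 and 3290 CPM (0.29, SE 0.32), and Ly6e at 1070 and 1572 against 1508, 2931 and 1524 CPM (0.50, SE 0.35). Irgm1 was at 16.4 and 47.8 against 24.3, 118.8 and 42.7 CPM (1.20, SE 0.64).

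Without FMT mouse 2 the median over the members of nonclassical monocytes was 0.14, and without saline mouse 2 it was 1.31. In that last fit, which leaves 1 saline mouse with 485 cells and assumes that it varies like the FMT mice, 13 of 40 members were called higher (1.7% of all genes). They were Zbp1, Gbp2, Isg15, Oasl2, Irf7, Stat2, Bst2, Irgm1, Ifi47, Irf1, Igtp, Rtp4 and Ifit3. With every gene that had a UMI tested, 4 members were called higher (0.371% of all genes), namely Gbp2, Stat2, Ifi47 and Irf1.

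The high level of FMT mouse 2 was spread over its cells and not held by a few. Among nonclassical monocytes with at least 1000 UMIs, the median cell held 151.2 member UMIs per 10000 in FMT mouse 2. The median was 45.7 and 70.3 in saline mice 1 and 2, and 63.4 and 70.6 in FMT mice 1 and 3. Some other markers were also higher in this mouse in the same cells. The classical monocyte list was at 16.4 per 10000 against 6.98 to 11.3 in the other mice. Of its genes Ly6c2 was at 744 CPM against 25.7 to 437 CPM, and Ccr2 at 66.0 against 0 to 43.2 CPM. Csf1r (823 against 656 to 869 CPM) and Vcan (4.40 against 0 to 14.2 CPM) were not highest in FMT mouse 2, and F13a1 was at 0 by the gate. The summed plasma cell list was at 97.9 per 10000 in FMT mouse 2, at 8.46 and 18.1 in the saline mice and 38.6 and 3.13 in the FMT mice 1 and 3, with all 4 of its genes detected. The part of such RNA in the member levels was not tested.

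Neutrophils, short-lived granulocytes, had a median of 0.57 over 32 members, of which 27 were higher and 5 lower. The groups did not overlap for 11 members, all higher in FMT (15.1% of all genes tested), and for 0 lower (10.7%). Ifit3 was at 106.6 and 84.0 CPM in the saline mice and 206.1, 198.1 and 174.4 CPM in the FMT mice. The FMT mice lay close together at 193 ± 16.5 CPM against 95.3 ± 16 CPM (SD, n = 3 and 2), with a log2 fold change of 0.92 (SE 0.25, edgeR adjusted p = 0.178).

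Ifi47, an immunity-related GTPase, was at 13.3 and 20.2 against 41.2, 42.5 and 38.4 CPM (1.21, SE 0.52), which rested on 5 to 13 UMIs per mouse. Ifi35, a partner of the interferon factor Nmi, was at 29.3 and 33.6 against 65.9, 77.8 and 50.2 CPM (0.91, SE 0.39). Irf7 was at 117.3 and 204.9 against 206.1, 332.6 and 206.9 CPM (0.55, SE 0.31), with no overlap but only just. Gbp7, a guanylate binding protein, was at 26.7 and 23.5 against 33.0, 70.8 and 44.3 CPM (0.88, SE 0.46).

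Ifitm3 (40.1% of neutrophil member UMIs) and Ly6e (7.31%), the neutrophil members with most RNA, showed no such separation, and neither did Isg15 (6.10%). Rtp4, which ranked between Ly6e and Isg15 with 6.40%, is not described by mouse here. Isg15 was at 477.1 and 258.6 against 305.0, 643.9 and 402.0 CPM (0.22, SE 0.35). Ifitm3 was at 2324 and 2586 against 2193, 3765 and 2890 CPM (0.20, SE 0.30), and Ly6e at 407.8 and 621.4 against 453.3, 594.4 and 431.5 CPM (−0.14, SE 0.28). Bst2 (−0.35, SE 0.49) and Irgm1 (0.07, SE 0.50) were also within their error. All 3 tested transcription factors of the module, Irf1, Irf7 and Irf9, were higher without overlap. Without FMT mouse 2 the neutrophil median was 0.28. The marker list of nonclassical monocytes was at 1.47 and 0.773 per 10000 in saline neutrophils and at 2.47, 1.20 and 1.03 in FMT neutrophils.

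B-gated cells showed a smaller median of 0.22 over 39 members, 26 higher and 13 lower. The groups did not overlap for 5 members higher (10.9% of all genes tested) and 2 lower (10.5%), both near the share of all genes. Irf1 was at 38.7 and 62.0 CPM in the saline mice and 99.2, 143.1 and 93.6 CPM in the FMT mice. Every FMT mouse was above both saline mice, at 112 ± 27.1 against 50.3 ± 16.5 CPM (SD, n = 3 and 2), and the log2 fold change was 1.17 (SE 0.25, edgeR adjusted p = 0.239). Zbp1, a sensor of left-handed nucleic acid, was at 43.4 and 47.1 against 52.3, 69.6 and 47.8 CPM, where FMT mouse 3 barely cleared saline mouse 2 (0.34, SE 0.23).

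Ifit3 in B-gated cells was at 16.6 and 10.5 against 24.2, 52.4 and 16.6 CPM, from 8 to 67 UMIs. FMT mouse 2 was highest, and FMT mouse 3 lay level with saline mouse 1, above it by less than 1 CPM (1.28, SE 0.42, edgeR adjusted p = 0.678). Isg15 was at 22.1 and 15.7 against 34.4, 40.6 and 14.6 CPM (0.76, SE 0.34) and Bst2 at 122.4 and 89.0 against 96.1, 179.0 and 162.2 CPM (0.44, SE 0.25), both with overlap. Ly6e, the member with the most UMIs, lay on the other side, at 1395 and 1604 against 1253, 1278 and 1123 CPM (−0.31, SE 0.15).

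Ifitm3 (−0.70, SE 0.60), Irf7 (−0.09, SE 0.28), Stat2 (0.14, SE 0.33), Gbp7 (0.30, SE 0.55) and Irgm1 (0.55, SE 0.34) overlapped between the groups in B-gated cells. Iigp1 did not pass the low count filter, with 1 to 5 UMIs in 4 mice and 40 UMIs in FMT mouse 2. Without FMT mouse 2 the median in B-gated cells turned to −0.08. With every gene that had a UMI tested, 3 members were called higher (0.788% of all genes), namely Irf1, Iigp1 and Ifit3.

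T-gated cells leaned the opposite way. Of 47 members tested, 38 were lower and 9 higher in FMT, with a median of −0.17. The groups did not overlap for 10 members lower (13.6% of all genes tested) and 0 higher (8.2%). Isg20, an RNA exonuclease, was at 81.2 and 92.3 CPM in the saline mice and 51.4, 54.4 and 59.8 CPM in the FMT mice. Both groups were tight and apart, at 86.8 ± 7.85 against 55.2 ± 4.24 CPM (SD, n = 2 and 3), and the log2 fold change was −0.63 (SE 0.17, edgeR adjusted p = 0.374).

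Ly6e in T-gated cells was at 751.9 and 947.7 against 601.2, 564.4 and 582.3 CPM (−0.50, SE 0.17, edgeR adjusted p = 0.637), again without overlap. Ifit1, which binds foreign RNA ends, was at 45.8 and 85.1 against 31.8, 42.7 and 29.9 CPM (−0.84, SE 0.27). Gbp7 was at 66.4 and 69.1 against 42.7, 62.7 and 44.0 CPM (−0.37, SE 0.21). These 4 genes had every FMT mouse below both saline mice.

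Ifit3 (−0.29, SE 0.34), Isg15 (−0.11, SE 0.25), Irf7 (−0.09, SE 0.26), Bst2 (−0.01, SE 0.21), Ifitm3 (−0.57, SE 0.26), Stat2 (−0.38, SE 0.38) and Irgm1 (−0.05, SE 0.21) overlapped in T-gated cells, and so did Iigp1 on the higher side (0.62, SE 0.34). Without FMT mouse 1 the T cell median was 0.03, without FMT mouse 2 it was −0.35 and without saline mouse 2 −0.09. Ifit1 was the only member called in any alternative fit of T-gated cells. Its log2 fold change was −1.20 (edgeR adjusted p = 0.039) without saline mouse 1, where 0.556% of all genes were called, and −0.82 with every gene that had a UMI tested, where 1.05% were called. The natural killer list in T-gated cells was at 15.2 per 10000 in FMT mouse 2 and at 1.08 to 4.64 in the other mice. Most of this was Gzma, at 1472 CPM in FMT mouse 2 against 77.9 to 436 CPM. Of its other genes Klre1 was also highest there, at 33.5 against 12.9 to 21.0 CPM. Klrb1c was lowest there, at 8.71 against 12.3 to 25.8 CPM, and Ncr1 lay within the other mice, at 0.871 against 0 to 4.90 CPM.

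Proximal tubule cells, the reabsorbing epithelium and the most numerous class, had estimates on different sides for different roles. Of 42 members tested, 28 were lower and 14 higher, with a median of −0.19. The groups did not overlap for 8 members lower (16.7% of all genes tested) and 2 higher (12.8%). The share lower was near that of all genes, and the share higher was below it. All 3 membrane effectors were lower without overlap, with a median of −0.94. All 5 immunity-related GTPases had estimates on the higher side with a median of 0.30, each highest in FMT mouse 2. The groups overlapped for each of these 5.

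Ifitm3 in proximal tubule cells was at 18.0 and 13.5 CPM in the saline mice and 7.39, 8.87 and 8.31 CPM in the FMT mice. The FMT mice formed a tight group at 8.19 ± 0.751 CPM against 15.7 ± 3.14 CPM (SD, n = 3 and 2), and the log2 fold change was −0.94 (SE 0.19, edgeR adjusted p = 0.153). Ly6e was at 33.0 and 30.7 against 18.8, 19.1 and 9.24 CPM (−0.98, SE 0.24, edgeR adjusted p = 0.232). Bst2 was at 32.6 and 41.4 against 17.8, 26.6 and 19.7 CPM (−0.77, SE 0.17, edgeR adjusted p = 0.199).

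Lgals3bp, a secreted glycoprotein that binds galectin 3, was at 40.4 and 65.8 against 31.9, 35.7 and 26.3 CPM (−0.73, SE 0.19, edgeR adjusted p = 0.261). Irf7 was at 12.3 and 31.1 against 6.40, 11.9 and 12.01 CPM (−1.09, SE 0.37), where saline mouse 1 lay just above the FMT mice and saline mouse 2 far above. Isg15 was at 6.92 and 13.3 against 3.58, 5.90 and 7.39 CPM and overlapped (−0.86, SE 0.34). DESeq2 called Ifitm3 and Ly6e lower (0.732% of all genes tested). With every gene that had a UMI tested, edgeR called 6 members (1.21% of all genes), Ifitm3, Irf7, Bst2, Lgals3bp and Ly6e lower and Irf1 higher.

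Other members of the proximal tubule had estimates near 0 or above it. Samd9l was level in all mice, at 112.0 and 99.6 against 100.8, 104.2 and 97.1 CPM (−0.05, SE 0.14). Irgm1 was at 37.3 and 80.3 against 53.3, 87.6 and 54.0 CPM (0.18, SE 0.29), and Iigp1, which attacks the vacuoles of parasites, at 4.12 and 7.70 against 5.72, 13.5 and 7.49 CPM (0.62, SE 0.37). Gbp7 (0.27, SE 0.50), Stat2 (−0.11, SE 0.27) and Ifit3 (−0.18, SE 0.38) overlapped. Without saline mouse 2 the median over the members of this class was 0.15.

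Some leukocyte markers in the proximal tubule gate moved with these genes and others did not. The neutrophil list, with all 5 genes detected, was at 0.869 and 0.548 per 10000 in the saline mice and 0.0406, 0.149 and 0.530 in the FMT mice. Csf1r, the monocyte growth factor receptor, was at 5.08 and 2.07 CPM against 1.69, 1.35 and 0.924 CPM, also lower in every FMT mouse. The monocyte lists that hold it overlapped. The nonclassical list was at 0.129 and 0.0316 against 0.0553, 0.0331 and 0.0216 per 10000, and the classical list at 0.0921 and 0.0503 against 0.0569, 0.0320 and 0.0380. The natural killer and plasma cell lists were highest in FMT mouse 1, at 0.376 and 1.52. Cd79a, part of the B cell receptor, was at 19.6 and 24.5 against 23.1, 21.7 and 13.5 CPM and overlapped, while Ms4a1, the gate gene of B cells, was at 0 by the gate. Ifitm3, Ly6e and Bst2 had their highest levels in leukocytes, and the part of leukocyte RNA in their proximal tubule levels was not tested.

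In the proximal tubule the cells with the highest member level held more than their share of the member UMIs, but not most of them. The 5% of cells with the highest member level held 18.2% and 21.6% of them in saline mice 1 and 2 and 24.4%, 21.1% and 26.5% in FMT mice 1 to 3. The 1% of cells with the highest member level held 6.35% and 7.58% of the member UMIs in saline mice 1 and 2 and 11.8%, 7.04% and 15.5% in FMT mice 1 to 3, but only 0.479% to 0.759% of all UMIs. These cells were picked by that level, so the shares are a description. The median proximal tubule cell held 1 to 3 member UMIs. In intercalated cells, which secrete acid or base, a single cell of the 87 in FMT mouse 2 held 49.3% of the member UMIs of that class. The plasma cell list was at 117.1 per 10000 in the same gate and mouse and at 0.543 to 1.30 in the other mice. Its gene Jchain was at 10667 CPM against 19.2 to 70.4 CPM, and Bst2 at 181.7 CPM against 14.1 to 29.5 CPM. The part of plasma cell RNA in that value was not tested.

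**Figure D4:**
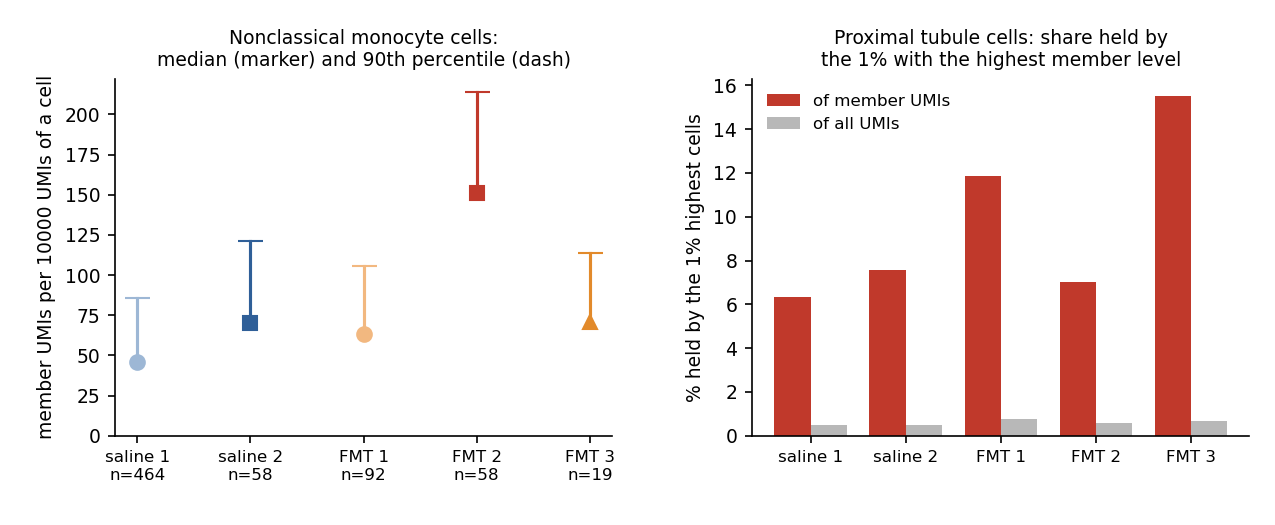
Left, member UMIs per 10000 UMIs of a cell in nonclassical monocytes with at least 1000 UMIs, as median (marker) and 90th percentile (dash) for each mouse, with the number of cells. Right, share (%) of member UMIs and of all UMIs in the 1% of proximal tubule cells with the highest member level. The median of FMT mouse 2 at 151.2 lies above the 90th percentile of each other mouse, and 6.35% to 15.5% of proximal tubule member UMIs lie in 1% of the cells.

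Distal tubule and intercalated cells had few members past the filter, 10 and 7. In distal tubule cells 5 were higher and 5 lower with a median of 0.05. Ifitm3 was at 54.3 and 43.5 against 36.9, 20.5 and 36.2 CPM there (−0.58, SE 0.28), and Samd9l at 64.9 and 53.7 against 74.7, 78.7 and 75.9 CPM (0.40, SE 0.22). Both were without overlap, and Ly6e (−0.02, SE 0.22), Bst2 (−0.25, SE 0.34), Isg15 (0.17, SE 0.48) and Irgm1 (0.20, SE 0.34) overlapped. In intercalated cells 3 members were higher and 4 lower, with a median of −0.68. Samd9l there was at 30.9 and 27.2 against 52.8, 64.9 and 76.7 CPM (1.12, SE 0.35, edgeR adjusted p = 0.999), from 8 to 24 UMIs per mouse. Ifitm3 (−0.68, SE 0.76), Ly6e (−0.68, SE 0.48) and Irgm1 (0.41, SE 0.54) overlapped there.

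In plasmacytoid dendritic cells Bst2 was at 5135 and 4938 against 4740, 6088 and 5961 CPM, and the groups overlapped. Ly6e was at 2123 and 2383 against 1586, 1783 and 961 CPM there, with every FMT mouse below both saline mice. In this gate the macrophage list was at 20.3 per 10000 in FMT mouse 3, where Ly6e was lowest, and at 0 in the other 4 mice, and its part was not tested. In classical monocytes Ifitm3 was at 3431 and 5590 against 6844, 7229 and 5265 CPM, where saline mouse 2 lay above FMT mouse 3. Ly6e was at 844 and 2040 against 1489, 4541 and 1580 CPM, highest in FMT mouse 2. The macrophage list was at 15.8 per 10000 in the classical monocytes of FMT mouse 2 and at 0.141 to 0.669 in the other mice, and its part in these levels was not tested.

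In B-gated cells, T-gated cells, nonclassical monocytes, neutrophils and proximal tubule cells, 21 members were tested in all 5 classes. Among these 21, Irf1 and Ly6e were those whose groups did not overlap, on the same side, in at least 3 classes. They were singled out after their values had been seen. Irf1 was higher in all FMT mice, without overlap, in B-gated cells, nonclassical monocytes, neutrophils and proximal tubule. In neutrophils it was at 74.6 and 63.8 against 82.4, 141.5 and 133.0 CPM (0.76, SE 0.32, edgeR adjusted p = 0.418). In proximal tubule cells it was at 4.05 and 5.92 against 7.58, 18.8 and 6.36 CPM (1.16, SE 0.43, edgeR adjusted p = 0.367). In T-gated cells it was at 87.1 and 125.9 against 121.8, 139.8 and 177.7 CPM (0.47, SE 0.21), where only saline mouse 2 and FMT mouse 1 crossed.

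Of the 2305 genes tested in all 5 of these classes, 15 were higher without overlap in at least 4 of them, and Irf1 was the only one of the 21 members tested in all 5 to be so. Ly6e was lower without overlap in 3 classes, B-gated, T-gated and proximal tubule cells, as were 70 of the 2305 genes in at least 3, but in nonclassical monocytes the groups overlapped and the estimate was above 0 (0.50). The classes come from the same 5 mice, so these are not independent observations.

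**Figure D5:**
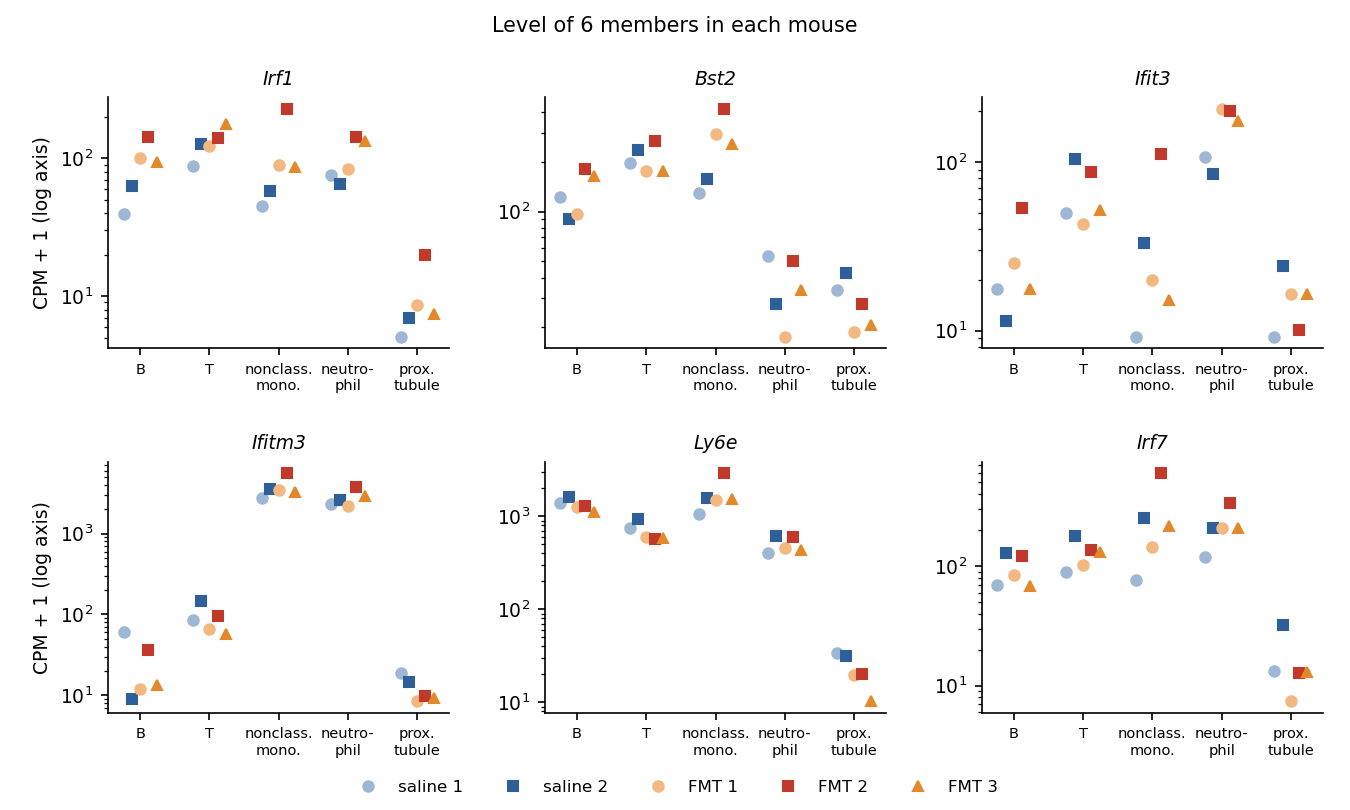
CPM + 1 (log axis) of 6 members in 5 gated classes; each point is 1 mouse. Irf1 is higher in all FMT mice in 4 of the 5 classes, whereas Ifitm3, Ly6e, Bst2 and Irf7 are lower in all FMT mice in proximal tubule cells.

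The difference between classes was tested directly for proximal tubule against lymphocytes, with class, class by treatment and mouse in 1 edgeR fit. Against B-gated cells 3 members were called (0.568% of the 12146 genes tested). Bst2 had the smallest adjusted p, with a fold change larger in B-gated cells by 1.13 on the log2 scale (SE 0.23, edgeR adjusted p = 0.00186). Isg15 differed by more, 1.61 (SE 0.40, edgeR adjusted p = 0.0228) and Irf7 by 0.97 (SE 0.25, edgeR adjusted p = 0.0331). Of the 48 members, 38 had the larger fold change in B-gated cells, as did 44.7% of all genes. The median difference was 0.44 against −0.06 over all genes.

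Against T-gated cells 1 member was called (0.917% of the 12655 genes tested), Irf7, with a difference of 1.04 (SE 0.24, edgeR adjusted p = 0.00409). There 27 of 48 members were on the T cell side, with a median of 0.11. Over all genes tested 50.9% were on that side, with a median of 0.007. All 48 members passed the low count filter of these joint fits, against 42 in proximal tubule cells alone, so that some passed through the lymphocytes. In B-gated cells alone 39 passed, and in T-gated cells alone 47. The counts out of 48 thus include members that did not pass in both classes alone. Bst2 against B-gated cells lost its call without saline mouse 2 or FMT mouse 3, and Isg15 and Irf7 did so without any 1 of the 4 mice other than saline mouse 1. Irf7 against T-gated cells lost its call without FMT mouse 1 or either saline mouse. The proximal tubule list in B-gated cells was at 3.21 and 3.68 per 10000 in the saline mice and 3.06, 2.39 and 2.06 in the FMT mice, and the plasma cell list there was at 47.97 and 10.3 against 40.0, 57.3 and 67.5. Bst2 in B-gated cells was also lowest in saline mouse 2 and highest in FMT mice 2 and 3. The part of either in these differences was not tested.

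The rest of the pathway showed little of the ligands. Of 9 interferon genes measured, 7 had 0 UMIs in all 22591 cells, among them Ifnb1, Ifna1, Ifna2 and Ifna4, and Ifnk had 2 UMIs. A count of 0 allows up to 3 UMIs over all these cells. Interferon gamma (Ifng) was the exception, with 1016 UMIs in 545 cells. In T-gated cells it was at 34.8 and 45.9 CPM in the saline mice and 116.2, 39.2 and 72.1 CPM in the FMT mice. FMT mouse 1 was highest and FMT mouse 2 below saline mouse 2 (0.97, SE 0.37, edgeR adjusted p = 0.75). The part of Ifng in the member levels was not tested.

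Among the receptors, both chains for type I interferon overlapped between groups in T-gated cells. Ifnar1 in T-gated cells was at 41.3 and 43.9 against 44.1, 36.1 and 44.0 CPM (−0.01, SE 0.20), and Ifnar2 at 61.9 and 66.0 against 66.8, 60.5 and 59.8 CPM (0.02, SE 0.17). In B-gated cells Ifnar1 was at 45.8 and 43.7 against 31.2, 40.65 and 35.3 CPM, lower in every FMT mouse (−0.33, SE 0.23, edgeR adjusted p = 0.868), while Ifnar2 overlapped (0.09, SE 0.26). Ifngr1 in T-gated cells was at 388.8 and 493.2 against 261.4, 327.1 and 387.0 CPM, with every FMT mouse below both saline mice if only just (−0.41, SE 0.19, edgeR adjusted p = 0.863). In proximal tubule cells Ifngr1 was at 24.3 and 19.5 against 18.2, 16.2 and 13.7 CPM (−0.43, SE 0.17, edgeR adjusted p = 0.399).

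Of the 39 pathway genes outside the module, 0 were called by edgeR in any class, with 2 of 25 at an unadjusted p under 0.05 in B-gated cells, 6 of 27 in T-gated cells, 2 of 20 in nonclassical monocytes, 4 of 15 in neutrophils, 4 of 25 in proximal tubule, 1 of 18 in distal tubule and 0 of 5 in intercalated cells. The shares over all genes at that threshold, given above, were 2.63% to 11.2%. In the direct comparison of T-gated with proximal tubule cells Socs3, an inhibitor of cytokine receptors, was called, with a difference of 1.59 (SE 0.42, edgeR adjusted p = 0.0202). It kept this call only without saline mouse 2 or FMT mouse 2, and the difference was 0.57 without saline mouse 1.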

How the data were processed

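The 5 matrices hold raw UMI counts per gene and cell barcode, deposited by the authors with no normalization. Cell Ranger 2.1.1 and the build mm10 are named in the submitters' processing notes, and the deposited matrix headers name cellranger 4.0.0. The extraction text in the labels names bulk RNA kits, and how it relates to the droplet libraries was not given in the sources used here.

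The cell filter asked for 200 genes or more and a mitochondrial share under 50%. Gates needed 1 UMI of Ms4a1 (B), Cd3e (T), Ear2 (nonclassical monocyte), F13a1 (classical monocyte) or Siglech (plasmacytoid), 50 S100a8 UMIs per 10000 (neutrophil), 20 Slc34a1 and Miox UMIs per 10000 (proximal tubule), 5 Slc12a3 UMIs (distal tubule) or 4 Atp6v1g3 UMIs (intercalated). The last 2 were set above 1 UMI after the pooled distribution was seen. The 1096 cells in 2 gates were left out; this removes some doublets, and a doublet caller (Scrublet) was used only in an alternative. Libraries shared 65 barcodes over all pairs.

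Counts were summed per mouse and class, and classes with under 20 cells in a mouse were not tested. The test on these sums was the edgeR 4.0.16 quasi-likelihood method (R 4.3.3, TMM scaling, default low count filter), and p-values were adjusted by Benjamini-Hochberg over all genes tested, with a threshold of 0.05. On simulated counts with fold changes set in advance, the test recovered the changed genes' fold sizes. That checks the code only. How many such changes the test calls with 2 against 3 mice is not given here. Levels and scores were computed with Python 3.11.15, clusters with scanpy 1.11.5. An exact permutation test of 2 against 3 mice cannot give a p below 0.1, so none is reported. The labels call the samples replicates without naming cages or days; their titles carry letter codes, C and D for saline and B for FMT, that follow the groups and are not explained, so what they mark cannot be told apart from treatment, and each p-value measures only the spread between these samples. Intervals cover counting error only. A CPM is a count of UMIs scaled to the class total and is not divided by gene length. Levels are meant to compare mice, and where genes are ranked, the ranks and shares are of captured UMIs only.

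Members named are those called in any class, the 3 with the largest and the 3 with the smallest fold change among members of at least 30 CPM without overlap, and Irf7, Isg15, Stat2, Ifit3, Bst2, Ifitm3, Ly6e, Gbp7, Irgm1 and Iigp1. Irf1 in T-gated cells, neutrophils and proximal tubule, and the members listed as called under an alternative, Dhx58, were named after their values were seen; so were Samd9l, Irgm1 and others given as shares of the sums. Members, lists and rules were chosen with earlier results of these data known. Reads of near-identical genes (Ifit3 and Ifit3b, the Gbp and Irgm families, Oas1a) may be shared between them. Alternatives were DESeq2 1.42.0, RLE scaling, no filter, a block for the replicate number, each mouse left out, under 20% mitochondrial UMIs, doubled gates, and Leiden clusters with doublets removed. A further pathway gene is not reported here.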

Additional observations from a re-analysis of the deposited data

Results flagged for a closer look

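In the joint fits 5 genes had a fold change of FMT over saline that differed between a lymphocyte class and the proximal tubule by the test of the difference itself (edgeR). For B-gated minus proximal tubule cells the log2 difference was 1.61 for Isg15, 0.97 for Irf7 and 1.13 for Bst2. For T-gated minus proximal tubule cells it was 1.04 for Irf7 and 1.59 for Socs3. Leaving out single mice ended calls for each of the 5, as given with the results. Groups of 2 and 3 mice are too small for Dixon's test of an outlying sample.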

How the results depend on the processing

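No member was called in the main fits, and alternatives added calls in 4 classes. With no filter on low counts edgeR called 3 members in B-gated cells, 1 in T-gated cells, 4 in nonclassical monocytes and 6 in proximal tubule cells, and DESeq2 called 2 in proximal tubule cells. With each mouse left out in turn the calls ranged from 0 to 1 in T-gated cells and from 0 to 13 in nonclassical monocytes. The replicate numbers shared by the groups did not pair the mice (correlations of deviations −0.17 to −0.01). With the replicate block the calls were 1 in B-gated cells and 5 in nonclassical monocytes, where 0.261% and 1.59% of all genes were called. Over the mice left out, the median log2 fold change of the members ranged from −0.084 to 0.33 in B-gated cells, from −0.35 to 0.03 in T-gated cells, from 0.28 to 0.70 in neutrophils, from 0.14 to 1.31 in nonclassical monocytes, from −0.44 to 0.15 in proximal tubule, from −0.43 to 0.23 in distal tubule and from −0.37 to 0.047 in intercalated cells. The intercalated median rests on 7 members, was −0.68 in the fit reported, outside the range with a mouse left out, and was 0.49 with no filter, −0.23 with the replicate block, 0.27 with doubled gates and −0.27 with clusters. In the test of B-gated against proximal tubule cells, 1 member was called under 20% mitochondrial UMIs, where 44 of 12059 genes were called. With doubled gates it was 1 member, and 21 of 12152 genes. With an FMT mouse left out it was 0 to 2 members, and 7 to 116 genes of 11982 to 12004 tested. For T-gated against proximal tubule cells 0 members were called with doubled gates, where 37 of 12473 genes were called. With an FMT mouse left out it was 0 to 1 members, and 28 to 161 genes of 12460 to 12585 tested. Of 777 alternative fits of 66 named pairs of member and class, 753 kept their side of the threshold and, where the estimate exceeded its SE, their direction; 23 passed the threshold anew and 1 reversed. The latter was Ifitm3 in B cells, at 1.35 without saline mouse 1, with a range of −1.56 to 1.35 over the mice left out. The cause was not tested. Depth left 7 members to test in intercalated and 10 in distal tubule cells, and FMT mouse 3 gave only 21 nonclassical monocytes.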
